A study of Homo sapiens with 4 samples.

Results

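BCOR and 9 other genes whose proteins belong to forms of Polycomb repressive complex 1 (PRC1) were followed in an RNA-seq experiment on K562 cells. The 10 genes were BCOR, BCORL1, KDM2B, PCGF1, RING1, RNF2, RYBP, USP7, SKP1 and BMI1. They were chosen by name, as the entry of the expression table that names the symbol and has the highest mean count, and all 10 were found among 62778 entries that carry a gene name. Each symbol occurred in 1 entry. K562 is an established human erythroleukemia line, and the cells used here carried an overexpressed S34F mutant of the splicing factor U2AF1 in both groups. In 2 libraries the cells had received the solvent DMSO, and in the other 2 the compound SF1-8 at 30 μM, with both groups treated for 48 h. SF1-8 came from a screen of fragments against the UHM domain, with which U2AF1 binds its partner U2AF2, and the comparison asks which genes differ in level between cells given SF1-8 and DMSO. Whether the domain was blocked in these cells is not measured in these libraries. The cells also hold their own U2AF1, and whether the line is a single clone is not given in the sources used here.

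PRC1 is a family of nuclear enzymes that keep developmental genes silent by attaching ubiquitin to histone H2A. Every form contains RING1 or RNF2 as the ubiquitin ligase together with 1 member of the PCGF family, which decides what else joins. BCOR or its relative BCORL1 assembles around PCGF1 with RYBP, with KDM2B, which recognises unmethylated CG dinucleotides, and with SKP1 and the deubiquitinase USP7. BMI1 is a PCGF protein of the classical form, which contains CBX and PHC proteins instead. BCOR and BCORL1 are recurrently mutated in myeloid neoplasms.

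The libraries held between 45331271 counts (DMSO 1) and 67311734 counts (SF1-8 1) on named entries. A count here is an estimate that does not stand for 1 read, so errors come from the spread between libraries, and levels are given as FPKM, the number of fragments scaled to the length of the entry and the depth of the library. GATA1, the defining erythroid transcription factor of this line, lay between 75.9 and 79.1 FPKM in all 4 libraries, and the summed level of the 12 entries of the erythroid marker list was 327 and 326 FPKM with DMSO and 298 and 318 FPKM with SF1-8. Both treated sums were below both controls, with 9 of the 12 log2 fold changes below 0 and 0 at an unadjusted p under 0.05 in edgeR. The 7 monocyte and granulocyte markers summed to 6.07 and 4.69 FPKM with DMSO and 4.89 and 4.61 FPKM with SF1-8, most of it LYZ, at 5.80, 4.08, 4.40 and 4.23 FPKM, while ELANE and MPO were at a count of 0 in all 4 libraries. The 7 lymphoid markers summed to 5.90 and 5.22 FPKM with DMSO and 4.49 and 4.33 FPKM with SF1-8, most of it CD3D, at 5.14 and 4.68 against 3.91 and 3.82 FPKM. Of both lists, 0 genes had an unadjusted p under 0.05. Marker genes of stromal cells were low: their summed level over 10 genes was 13 and 6.19 FPKM with DMSO and 3.19 and 0.799 with SF1-8. The sums were lower with SF1-8, but the libraries within each group also lay far apart. Of these 10 genes, 9 were lower in both SF1-8 libraries than in both DMSO libraries, beside 18.1% of all genes. In edgeR, 0 had an adjusted p under 0.05. LUM was at 0 in both SF1-8 libraries and DCN in SF1-8 2. Both of these and PDGFRB passed the filter on low counts through the DMSO libraries alone, so nothing is read from their part of the 9. In such bulk samples fewer cells of a type and less RNA per cell cannot be told apart. The labels do not say that the 2 libraries of a group came from separate cultures, so p-values measure the spread between these libraries, which may be technical.

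Of the 10 genes, USP7 alone differed between the groups beyond the spread between libraries at an unadjusted p under 0.05, and none passed in edgeR after adjustment over all genes. Counts of 26167 genes were tested by the quasi-likelihood method of edgeR with Benjamini-Hochberg adjusted p-values. At an adjusted p under 0.05 it called 0 of the 10 genes and 0.042% of all genes, 0.0191% as higher and 0.0229% as lower with SF1-8. At an unadjusted p under 0.05 it called 1 of the 10, as higher, and 4.33% of all genes, 1.78% as higher and 2.54% as lower. DESeq2, a related count model, called 1 of the 10, again USP7, and 0.623% of all genes at an adjusted p under 0.05, 0.252% as higher. The log2 fold change was above 0 for 6 of the 10 genes, beside 48.4% of all genes, and below 0 for 4, with a median of 0.038 beside -0.011 over all genes tested. In normalized counts the groups did not overlap for 2 of the 10 genes, beside 35.5% of all genes. Both were higher in the treated libraries, USP7 and RNF2, as were 17.3% of all genes, and 0 were lower, beside 18.1% of all genes. For the 9 genes besides USP7, the log2 fold changes lay between -0.060 and 0.10, the smallest unadjusted p was 0.314 and the adjusted p ran from 0.970 to 0.992 by edgeR.

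**Figure D1:**
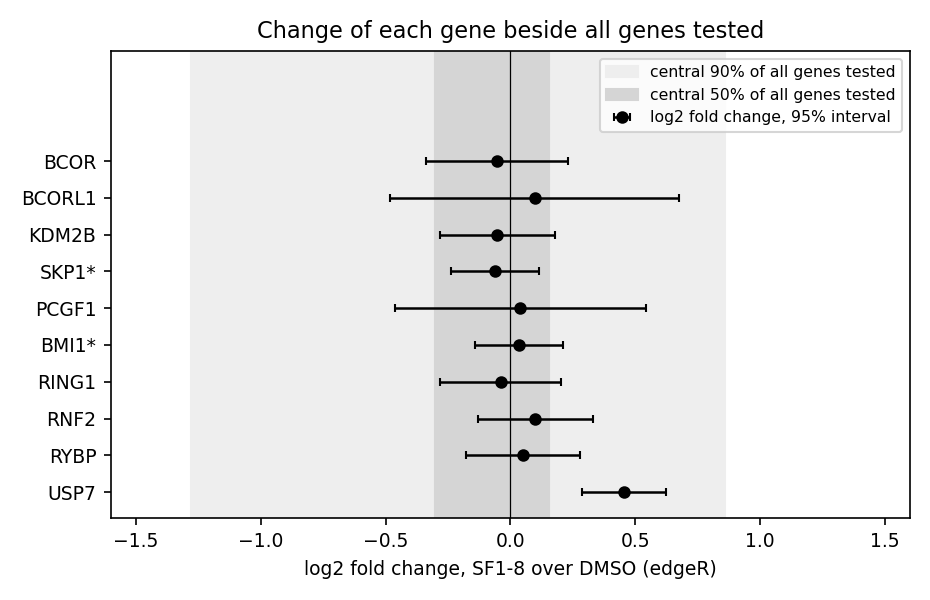
Log2 fold change of each of the 10 genes with SF1-8 over DMSO (x axis, edgeR), as points with 95% intervals from 2 libraries per group; grey bands hold the central 50% and 90% of the 26167 genes tested, and an asterisk marks entries that also count neighbouring protein-coding genes. USP7 lies at 0.46 with an interval from 0.29 to 0.63, and the other 9 intervals include 0.

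USP7 removes ubiquitin from proteins, among them partners of PRC1 and the p53 regulator MDM2. Its level was 15.2 and 14.1 FPKM in the DMSO libraries and 19.8 and 19.6 FPKM in the SF1-8 libraries. Both treated libraries were thus above both controls, and they differed from each other by 0.016 on the log2 scale. The mean level was 14.6 ± 0.844 FPKM (SD, n = 2) with DMSO and 19.7 ± 0.151 FPKM (SD, n = 2) with SF1-8. The normalized counts gave a 1.37-fold higher level with SF1-8, with a 95% interval from 1.22 to 1.54. On the log2 scale this was 0.46 (standard error 0.066), with an edgeR p of 0.000883 before and 0.405 after Benjamini-Hochberg adjustment. USP7 had the 57th smallest p of the 26167 genes, and its log2 fold change was larger than that of 88.5% of them. The change was between 0.44 and 0.48 when any 1 library was left out and between 0.41 and 0.46 in the other settings. Its unadjusted p stayed under 0.05 with all libraries and in each of 14 alternative settings, from 1.79e-05 to 0.00652. The adjusted p ran from 0.00472 with DESeq2 to 0.829 with counts scaled by library size alone, and DESeq2 was the only setting to bring it under 0.05. The part of the lower erythroid, lymphoid and stromal marker levels in this difference was not tested.

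The USP7 entry runs on the minus strand from chr16:8892097-8975328 in GRCh38. GENCODE version 29 places the gene between 8892094 and 8964514, so the assembled entry reaches 10814 bases past the annotated 5′ end. GENCODE lists 21 transcripts of USP7, of which 7 are protein-coding, and all 21 are among the 22 transcripts of this entry. The value of USP7 is the total over the entry, and how it divides among them is not analysed here.

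**Figure D2:**
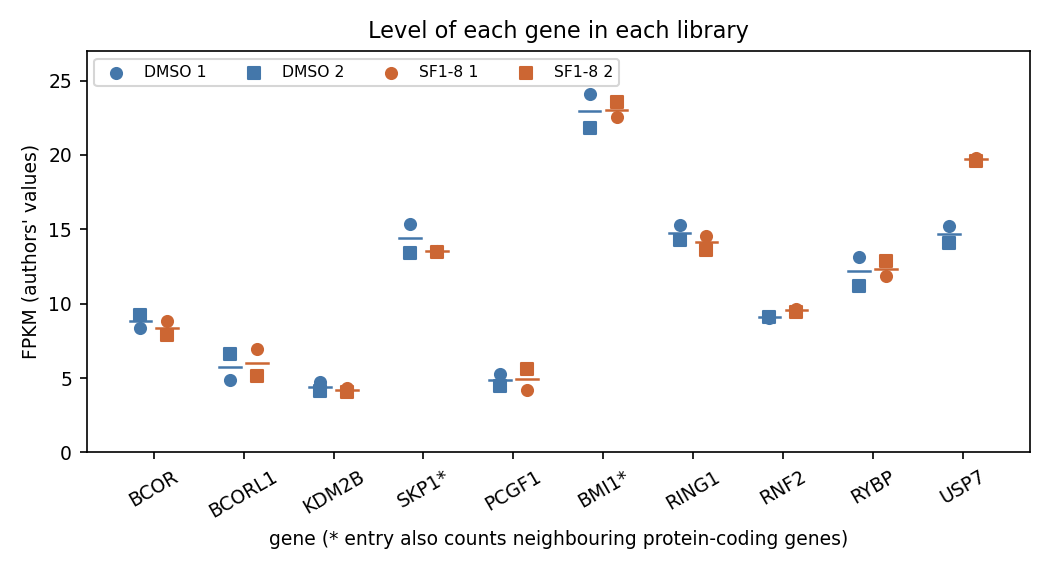
FPKM of the 10 genes (y axis, linear) in each library, with DMSO in blue and SF1-8 in orange, circles for library 1, squares for library 2 and bars for the mean of each group. For USP7 the SF1-8 libraries sit at 19.8 and 19.6 FPKM above DMSO libraries at 15.2 and 14.1 FPKM, while for BCOR, BCORL1, PCGF1 and RYBP the points of both groups interleave.

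BCOR, the corepressor that gives the complex its name, is bound by the transcription factor BCL6 and holds PCGF1 through its C-terminal part. Its entry covers chrX:40049815-40177329, which are the limits of the gene in GENCODE. GENCODE lists 12 transcripts of BCOR, and all 12 are among the 15 transcripts of this entry. BCOR was at 8.37 and 9.23 FPKM with DMSO and at 8.81 and 7.87 FPKM with SF1-8. The lowest value was in a treated library and the highest in a control, and the groups overlapped. The log2 fold change of BCOR was -0.053 with a 95% interval from -0.34 to 0.23, and its adjusted p was 0.978 (edgeR, Benjamini-Hochberg). Its direction hung on single libraries, since it was 0.067 without DMSO 2 and 0.036 without SF1-8 2. These are totals over the transcripts of BCOR, and a shift between transcripts would not show in them.

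BCORL1, on chrX:129981107-130057663, encodes the relative of BCOR that can take its place on PCGF1. BCORL1 was at 4.84 and 6.63 FPKM with DMSO and at 6.92 and 5.16 FPKM with SF1-8, with 1 low and 1 high library in each group. The 2 libraries of a group differed by 0.45 and 0.42 on the log2 scale, which was more than the difference between the groups. Its log2 fold change was 0.097, with a wide interval from -0.48 to 0.68. Leaving out 1 library moved it between -0.15 and 0.39. BCOR exceeded BCORL1 in every library, with an FPKM ratio of 1.73 and 1.39 in the DMSO libraries and 1.27 and 1.53 in the SF1-8 libraries. This ratio differed between the groups by -0.16 on the log2 scale, within the spread between libraries (SD 0.20, exact permutation test, two-sided p = 0.667, where the smallest p that 2 against 2 libraries allow is 0.333).

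KDM2B, a histone demethylase, brings the complex to CpG islands through its CXXC zinc finger. It was the lowest of the 10 genes by mean level, at 4.74 and 4.11 FPKM with DMSO and 4.32 and 4.03 FPKM with SF1-8. The groups overlapped, and the log2 fold change of KDM2B was -0.053 with an interval from -0.28 to 0.18. The entry, chr12:121426579-121581023, also holds the microRNA gene MIR7107, which lies inside KDM2B. SKP1 links F-box proteins such as KDM2B to other proteins and is best known from SCF ubiquitin ligases. Its entry, chr5:134148935-134371047, also names PPP2CA, CDKL3 and AC104109, so its value is a sum over several genes and cannot be read as SKP1 alone. That sum was 15.4 and 13.4 FPKM with DMSO and 13.6 and 13.5 FPKM with SF1-8. Its log2 fold change was -0.060 with an interval from -0.24 to 0.12, the narrowest but for USP7 and BMI1.

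Because KDM2B reads CG dinucleotides, the CG content of the genes' own promoters was counted in the 250 bases upstream of the RefSeq start site (GRCh38.p14). The motif searched was CG, which is its own reverse complement, and 93.9% of 35116 promoters of this length hold at least 1, with a median of 11. For 8 of the 10 genes the RefSeq start lay within 200 bases of the GENCODE 5′ end. In these 8 windows the number of CG ranged from 5 in BCOR to 35 in SKP1 and BMI1, and 7 of the 8 were above the median. For USP7 the RefSeq start lay 14860 bases inside the gene and for PCGF1 885 bases, so their windows do not describe the annotated 5′ end. RING1, with 34 CG, and KDM2B itself, with 13, are printed to show a CG-dense window beside one near the median, with each CG in capitals. The windows are chr6:33208250-33208499 on the plus strand and chr12:121581024-121581273 on the minus strand.
RING1: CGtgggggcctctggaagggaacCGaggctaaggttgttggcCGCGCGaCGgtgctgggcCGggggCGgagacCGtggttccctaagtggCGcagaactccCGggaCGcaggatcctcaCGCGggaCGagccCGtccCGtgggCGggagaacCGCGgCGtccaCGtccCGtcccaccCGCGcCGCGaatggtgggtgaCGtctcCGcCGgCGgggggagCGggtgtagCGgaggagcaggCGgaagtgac
KDM2B: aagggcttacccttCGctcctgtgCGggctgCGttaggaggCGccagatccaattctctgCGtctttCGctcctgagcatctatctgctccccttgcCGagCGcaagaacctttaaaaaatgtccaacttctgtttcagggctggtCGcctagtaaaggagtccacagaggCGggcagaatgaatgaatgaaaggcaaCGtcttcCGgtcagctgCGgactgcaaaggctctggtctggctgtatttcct
Neither gene passed the test for a change with SF1-8. The windows describe sequence only, since binding and methylation were not measured.

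PCGF1 is the PCGF protein that couples BCOR to the ligase. It was at 5.30 and 4.45 FPKM with DMSO and at 4.17 and 5.63 FPKM with SF1-8. Both extremes were in treated libraries, which differed from each other by 0.43 on the log2 scale. PCGF1 had the fewest counts of the 10 genes, from 536 in DMSO 1 to 798 in SF1-8 2, on a short entry at chr2:74505043-74507416. GENCODE places the 5′ end of this minus-strand gene at 74508580, so the entry does not span the whole annotated gene. The log2 fold change of PCGF1 was 0.040 with an interval from -0.46 to 0.54, which spans fold changes from 0.726 to 1.46. It lay between -0.18 and 0.24 when 1 library was left out and turned to -0.0069 with counts scaled by library size alone.

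BMI1 is a PCGF protein of the classical form of PRC1 and maintains self-renewal of blood stem cells. Its entry at chr10:22316386-22331484 also names COMMD3 and the read-through gene COMMD3-BMI1, so its FPKM holds reads of COMMD3. That entry was at 24.1 and 21.8 FPKM with DMSO and 22.5 and 23.6 FPKM with SF1-8, the treated libraries lying between the controls. Its log2 fold change was 0.035 with an interval from -0.14 to 0.21. The FPKM ratio of PCGF1 to the BMI1 entry was 0.220 and 0.204 with DMSO and 0.185 and 0.239 with SF1-8. On the log2 scale it differed by -0.010 between groups (SD within groups 0.19, exact permutation test, two-sided p = 1).

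RING1 and RNF2 are paralogous E3 ligases, and each PRC1 particle carries 1 of them. RING1 was at 15.3 and 14.3 FPKM with DMSO and at 14.6 and 13.6 FPKM with SF1-8. RNF2 was at 9.02 and 9.12 FPKM with DMSO and at 9.65 and 9.45 FPKM with SF1-8. The RING1 groups overlapped, while both treated RNF2 libraries lay above both controls, in FPKM and in normalized counts. RNF2 was higher by 0.10 on the log2 scale (standard error 0.090, interval from -0.13 to 0.33), and this difference had an unadjusted p of 0.314 and an adjusted p of 0.970 (edgeR, Benjamini-Hochberg). It kept its sign in all 14 alternative settings, between 0.054 and 0.15. The log2 fold change of RING1 was -0.039 with an interval from -0.28 to 0.20, and 0.020 without SF1-8 2. RING1 exceeded RNF2 in every library, by 1.69 and 1.56 times with DMSO and by 1.51 and 1.44 times with SF1-8. Both treated ratios were below both controls, and the mean log2 ratio differed by -0.14 (SD within groups 0.066). With 2 libraries against 2, the exact permutation test could not go below its smallest two-sided p of 0.333, which it gave. RING1 lies at chr6:33208500-33212716 and RNF2 at chr1:185045526-185102603.

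RYBP, at chr3:72371825-72446621, binds RING1 or RNF2 in the place of a CBX protein and raises the activity of the ligase. RYBP was at 13.1 and 11.2 FPKM with DMSO and at 11.9 and 12.8 FPKM with SF1-8, so the treated libraries lay between the controls. Its log2 fold change was 0.050 with an interval from -0.18 to 0.28. Its single GENCODE transcript is protein-coding.

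**Figure D3:**
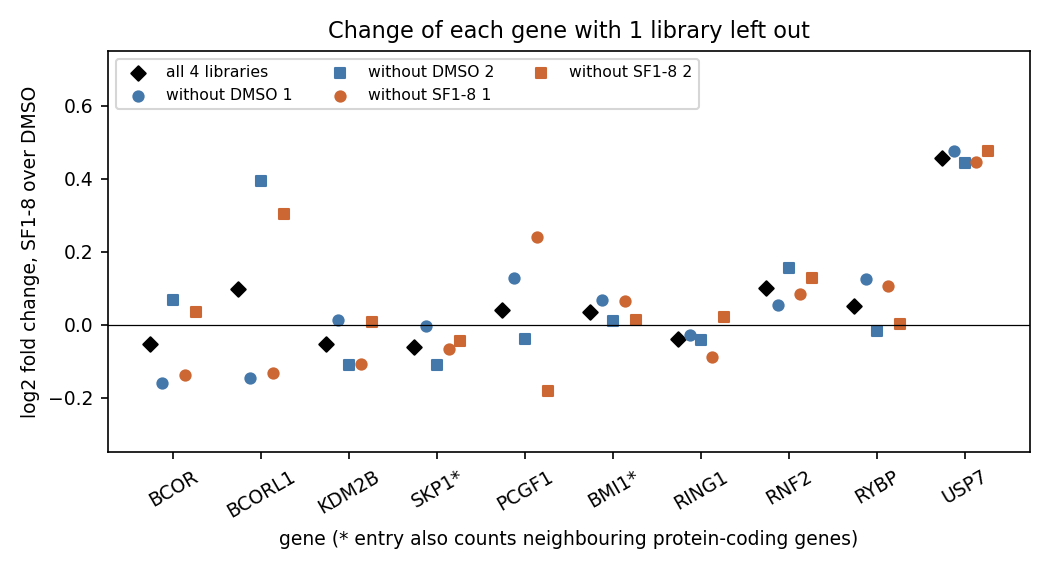
Log2 fold change with SF1-8 over DMSO (y axis, edgeR) of the 10 genes with all 4 libraries (black) and with 1 library left out (blue for a DMSO library, orange for an SF1-8 library, circles for library 1 and squares for library 2). USP7 stays between 0.44 and 0.48, whereas BCORL1 runs from -0.15 to 0.39 and PCGF1 from -0.18 to 0.24.

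Ordered by mean FPKM, which is per length, the entry of BMI1 was the highest in both groups, at 22.9 FPKM with DMSO and 23.0 FPKM with SF1-8. With DMSO, RING1 (14.8 FPKM), USP7 (14.6 FPKM) and the SKP1 entry (14.4 FPKM) followed with overlapping libraries, so their order is not resolved. With SF1-8, USP7 stood second at 19.7 FPKM and no longer overlapped RING1 at 14.1 FPKM. RYBP, RNF2 and BCOR came next in both groups, at 12.2, 9.07 and 8.80 FPKM with DMSO, of which RNF2 and BCOR overlapped with DMSO and not with SF1-8. BCORL1, PCGF1 and KDM2B were the lowest in both groups, and each overlapped its neighbour in that order. The genes peculiar to the BCOR complex were thus expressed at 4.18 to 8.80 FPKM in both groups.

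The rest of the Polycomb system was read from 6 gene lists. Of their 95 tested entries, 0 passed the adjusted threshold in edgeR, and 5 had an unadjusted p under 0.05. Of these 5, HOXB13 and BMP2 passed the filter on low counts through 1 group alone, so they had to differ and nothing is read from the share. The groups did not overlap for 32 of the 95 (33.7%), beside 35.5% of all genes. These 32 include HOXB13, BMP2 and also HOXC12, each of which passed the filter through 1 group alone. Among the 30 tested entries of other PRC1 subunits, 20 had a log2 fold change above 0 and the median was 0.035. SCML2, a Polycomb protein that binds RNA, had the only unadjusted p under 0.05 among them, at 8.68 and 8.82 FPKM with DMSO and 10.2 and 10.4 FPKM with SF1-8. SCML2 thus differed by 0.26 on the log2 scale (standard error 0.088), with an edgeR p of 0.0291 before and 0.970 after Benjamini-Hochberg adjustment.

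PRC2 is the Polycomb enzyme that methylates histone H3. Its 13 genes, among them the methyltransferase EZH2, had log2 fold changes between -0.078 and 0.19 with a median of 0.073, and 0 reached an unadjusted p of 0.05. For the 13 tested genes of the list for removal of ubiquitin from H2A, which holds enzymes and their partners, the median was 0.045, and again 0 reached it. Of 15 tested entries of partners of BCOR, KDM2B, SKP1 and USP7, the median was 0.043 and 2 had an unadjusted p under 0.05, both lower. MLLT1, a reader of acylated histones, was at 7.52 and 5.48 FPKM with DMSO and 4.98 and 4.07 FPKM with SF1-8. FBXL19, a CXXC protein related to KDM2B, was at 10.1 and 10.4 FPKM with DMSO and 8.19 and 6.24 FPKM with SF1-8, in an entry shared with ORAI3 and AC135048. Their log2 fold changes were -0.49 for MLLT1 and -0.48 for FBXL19, each with an adjusted p of 0.970 (edgeR, Benjamini-Hochberg).

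HOX genes and other developmental regulators are classical targets of Polycomb silencing. Of 33 HOX entries, which hold 39 genes, 11 passed the filter on low counts. Their median log2 fold change was -0.11, with 8 below 0 and 3 above, beside 48.4% of all genes above 0. The 8 include HOXB13 and HOXC12, which passed the filter through the DMSO libraries alone and so had to lie below 0. Nothing is therefore read from this tally. HOXB9 and HOXB2, the highest of the list by FPKM, were at 0.066 and 0.086. HOXB13 had counts of 19 and 24 with DMSO and 0 in both SF1-8 libraries, and passed the filter through the DMSO libraries alone. Among 18 other targets 13 were tested, with a median of -0.22, 5 above 0 and 8 below. Several of the 13 had few counts. GATA2, CDKN2C and the entry of CCND2, the highest of this list by FPKM, were at 0.035, -0.021 and 0.088. BMP2, a growth factor, was at 0 in both DMSO libraries and had counts of 16 and 23 with SF1-8, through which alone it passed the filter. It is among the 5 above 0, so nothing is read from that tally either. For HOXB13, HOXC12 and BMP2 no fold and no p are given.

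**Figure D4:**
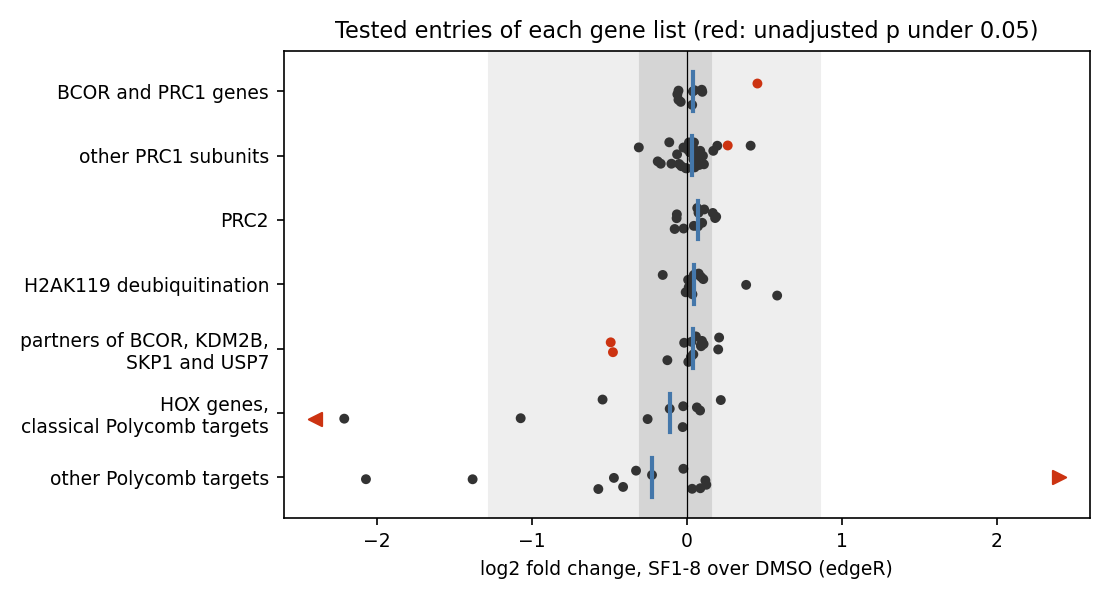
Log2 fold change with SF1-8 over DMSO (x axis, edgeR) of each tested entry, by gene list, with blue bars for the median, red for an unadjusted p under 0.05, arrowheads for entries beyond the axis (HOXB13 and BMP2, which passed the filter through 1 group alone) and grey bands for the central 50% and 90% of all genes tested. The subunit lists cluster around medians from 0.035 to 0.073, and the HOX and other target lists, with medians of -0.11 and -0.22, spread more widely. Both target lists include entries with few counts, so nothing is read from their medians or spread.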

How the data were processed

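RNA was sequenced from K562 cells overexpressing U2AF1 S34F, with 2 libraries per group, after removal of ribosomal RNA. The submitters' processing notes name cutadapt, FastQC, Bowtie2, HISAT2, StringTie and the build hg38, without settings. The authors deposited 1 table of 64873 entries, with an FPKM value, normalized by the authors for entry length and library depth and set to 0.0001 where the count is 0, and an estimated count per library. Estimated counts, deposited as whole numbers with 4 the commonest value above 0, were not normalized. The 2095 entries without a gene name (0.372% of counts) were left out. An entry may hold several genes.

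Counts of 4 libraries (45331271 to 67311734) were filtered by filterByExpr (26167 genes left), scaled by TMM and tested with edgeR 4.0.16 (quasi-likelihood, R 4.3.3), with Benjamini-Hochberg adjustment of p-values. Standard errors and 95% intervals follow from the test's F and degrees of freedom. Ratios of 2 genes were compared by an exact permutation test in Python 3.11.15. The steps were tested on simulated data. Alternatives were DESeq2 1.42.0, limma 3.58.1 on log2(FPKM + 1) or log2(FPKM + 0.1), other scalings and filters, counts divided by 4, a replicate block and leaving out each library. The members and lists were chosen with earlier results of these data known. Named from each of the 6 Polycomb lists were genes past an adjusted p of 0.05 and the 2 with the smallest unadjusted p under 0.05 in each direction, along with all 10 members and markers that check the cell type. EZH2 was named for its role and HOXC12 for its passage of the filter. HOXB9, HOXB2, GATA2, CDKN2C and CCND2 were named as the highest of their lists by FPKM. Annotation came from GENCODE version 29 and promoter windows from RefSeq, both on GRCh38.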

Additional observations from a re-analysis of the deposited data

How the results depend on the processing

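The number of genes past an adjusted p of 0.05 was 11 with edgeR and 10 to 12 with other scalings or counts divided by 4. It was 163 with DESeq2, 31 without a filter on low counts, 0 with limma in each of its 3 settings (1493 to 1753 genes at an unadjusted p under 0.05) and 0 to 30 when 1 library was left out, the 0 being without DMSO 1 (1342 at an unadjusted p under 0.05). The number of the 10 genes past that threshold was 0 throughout but for 1, USP7, with DESeq2, and leaving out 1 library kept it at 0. USP7, RNF2 and SKP1 kept their direction in all 14 alternatives. Leaving out 1 library reversed BCOR (0.067 without DMSO 2, 0.036 without SF1-8 2, lowest -0.16), BCORL1 (-0.15 without DMSO 1, -0.13 without SF1-8 1, highest 0.39), KDM2B (0.013 without DMSO 1, 0.0076 without SF1-8 2, lowest -0.11), PCGF1 (-0.038 without DMSO 2, -0.18 without SF1-8 2, highest 0.24), RING1 (0.020 without SF1-8 2, lowest -0.090) and RYBP (-0.016 without DMSO 2, highest 0.13). PCGF1 also reversed with library size alone (-0.0069), under which the median of all genes was -0.057, and with limma on log2(FPKM + 1) (-0.00037, with or without a filter) and log2(FPKM + 0.1) (-0.0020), as did BMI1 with library size alone (-0.012). All are log2 fold changes. Each value of reversed sign was within 1 standard error of 0, and the cause was not tested. Leaving out 1 library moved the log2 ratios from -0.20 to -0.084 (RING1 to RNF2), -0.19 to 0.17 (PCGF1 to BMI1) and -0.31 to 0.00021 (BCOR to BCORL1). Where 1 library was left out, the lone sample of its group was assumed to vary like the others. The labels give same-numbered libraries only a number in common, and whether they share a day or culture is not stated. The correlation between DMSO 1 and SF1-8 1 of their deviations from the group means was 0.016 over 26167 genes, which cannot settle it. With the replicate block, 0 genes (971 at an unadjusted p under 0.05) passed the adjusted threshold, USP7 was at 0.46 with an adjusted p of 0.726, and the 3 log2 ratios were -0.14 for RING1 to RNF2, -0.010 for PCGF1 to BMI1 and -0.16 for BCOR to BCORL1, as without it, and no call among the 10 genes changed. Summing entries gave no other value, since each symbol has 1 entry. BCORL1 and PCGF1 had the widest intervals of the 10 genes, and their libraries within a group differed by 0.25 to 0.45 on the log2 scale.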
